A study of Mus musculus with 8 samples.

Results

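Expression of 10 genes of the Notch pathway was examined in epithelial cells of the mouse buccal (cheek) mucosa: the receptors Notch1, Notch2 and Notch3, the ligands Jag1, Jag2 and Dll1, the transcription complex genes Rbpj and Maml1, and the targets Hes1 and Hey1. The genes were chosen by symbol, and all 10 stood in the deposited table of 23355 genes and among the 14533 genes tested. Cells came from untreated wild type C57BL/6 mice kept specific pathogen free, 4 animals of 8 weeks and 4 of 1 week of age. Dispase II was used to lift off the epithelium, its cells were purified by FACS, and low-input stranded libraries were made from total RNA after depletion of ribosomal RNA. Sorting markers, sex and batches are not given in the sources used here. The comparison is that of adult with postnatal epithelium, 8 weeks against 1 week.

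Notch receptors are membrane proteins that are activated by ligands of the Jagged and Delta families on neighbouring cells. Ligand binding leads to cleavage by an ADAM protease and then by gamma-secretase, and the freed intracellular domain enters the nucleus, where it joins the DNA-binding protein Rbpj and a Mastermind co-activator to switch on genes such as those of the Hes and Hey repressors. In stratified epithelia the pathway is known for driving cells out of the basal layer into differentiation.

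The libraries held 13037171 to 16807773 counts at 8 weeks and 11747783 to 13169992 at 1 week. Library slopes of expression on transcript length, in log2 per doubling of length, ran from -0.0186 to 0.19 at 8 weeks and from -0.165 to -0.0451 at 1 week, and each slope at 8 weeks was above each at 1 week. Markers of stratified epithelium summed to 31891 to 39554 CPM (counts scaled to library size with TMM factors) at 8 weeks and 36819.8 to 42288 CPM at 1 week, with 0 of 8 called. The members of this list went in both directions, with log2 fold changes of -0.39 for Krt5, -0.49 for Krt14 and -0.11 for Epcam, and of 0.26 for Cdh1, 0.31 for Krt4, 0.27 for Dsp, 0.095 for Krt13 and 0.07 for Trp63. Of 6 pericyte and smooth muscle markers, cells known for Notch3, 2 were tested and 0 called. They summed to 70.9 to 89.8 CPM at 8 weeks and 71.2 to 91.7 CPM at 1 week, most of it Cspg4, at 71.2 ± 8.88 and 63.1 ± 8.85 CPM (SD, n = 4 each). The other 5 summed to 3.44 to 16.9 CPM at 8 weeks and 17.0 to 20.6 CPM at 1 week, most of it Acta2, and Rgs5 and Pdgfrb held 12 and 13 counts over the 8 libraries. Of 6 endothelial markers 3 were tested and 0 called, with sums of 6.36 to 11.8 CPM at 8 weeks and 7.92 to 11 CPM at 1 week, and Emcn was not in the table. The fibroblast sum was 399.5 to 776 CPM at 8 weeks and 923 to 1161 CPM at 1 week, nearly all of it Dcn, which was called lower, and without Dcn it was 0.654 to 1.68 and 0.623 to 2.24 CPM. Melanocyte and Schwann cell markers summed to 5.16 to 6.25 CPM at 8 weeks and 7.53 to 19.8 CPM at 1 week with 1 of 5 called, and immune markers to 1.65 to 3.68 and 1.13 to 2.85 CPM with 0 called. Basal keratinocyte markers summed to 16151 to 22244 CPM at 8 weeks and 22232 to 25440 CPM at 1 week, with 0 of 6 called. This sum followed Krt5 and Krt14, while the log2 fold changes of the other 4 were positive, at 0.07 for Trp63, 0.21 for Col17a1, 0.24 for Itga6 and 0.33 for Itgb4. Suprabasal markers summed to 11409 to 14373 CPM at 8 weeks and 10456 to 12952 CPM at 1 week, with 0 called. Nearly all of this sum was Krt4 and Krt13. The log2 fold changes of the others tested were 0.22 for Krt1, 0.00011 for Sbsn and -0.26 for Krt10, and Ivl was not tested. The part of these values in the results below was not tested, and in bulk samples more cells of a type and more RNA per cell cannot be told apart.

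At 8 weeks the receptors Notch1 and Notch3 and the ligands Jag2 and Dll1 were higher, by 1.36-fold to 1.53-fold, while Notch2, Jag1, Rbpj, Maml1, Hes1 and Hey1 did not pass the test. Thus 4 of 10 genes were called higher and 0 lower, against 3.33% of all genes tested called higher and 3.22% called lower. In the authors' deposited table, where 3.33% of the genes with an adjusted p were called higher, the adjusted p was 0.00527 for Notch1, 0.00781 for Notch3, 0.00585 for Jag2 and 0.0228 for Dll1. Of the 10 genes 7 have a longest transcript of at least 5000 bp, and in this class 11.3% of genes were called higher. Of the 4 called, Notch1, Notch3 and Jag2 are in this class and Dll1 is not. After a correction of each library for transcript length and GC content 0 of the 10 were called, against 1.16% of all genes called higher. The median log2 fold change of the 10 genes was 0.33 as counted and 0.15 after correction, and over all genes tested -0.0025 and 0.016.

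Sequences upstream of the start are shown for the 4 genes that were called, and for Rbpj, where the core motif of its own protein occurred. They are the 250 bases before the RefSeq start (GRCm38.p6), which held entries for 8 of the 10 genes, in lower case, 5′ to 3′ on the strand of the gene. The windows of Notch1, Jag2 and Rbpj lie inside the gene spans given below, so they are not upstream of the whole gene. Only the window further upstream is shown for Dll1 and for Rbpj. Capitals mark the GC box GGGCGG or its reverse complement in Notch1, Notch3 and Jag2, with overlapping matches run together, and the Rbpj core motif TGGGAA or its reverse complement in Rbpj.
Notch1, chr2:26503823-26504072, minus strand: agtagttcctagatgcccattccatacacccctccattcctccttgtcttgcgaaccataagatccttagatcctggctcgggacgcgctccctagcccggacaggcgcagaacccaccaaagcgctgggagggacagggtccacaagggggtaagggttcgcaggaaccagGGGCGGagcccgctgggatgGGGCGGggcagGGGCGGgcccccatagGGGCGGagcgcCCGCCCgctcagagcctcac
Notch3, chr17:32166891-32167140, minus strand: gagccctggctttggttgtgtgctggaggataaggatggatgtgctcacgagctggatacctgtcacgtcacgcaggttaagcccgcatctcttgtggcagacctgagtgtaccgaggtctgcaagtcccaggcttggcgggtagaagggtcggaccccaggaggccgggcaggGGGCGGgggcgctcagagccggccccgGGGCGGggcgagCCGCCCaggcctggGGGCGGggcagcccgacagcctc
Jag2, chr12:112929496-112929745, minus strand: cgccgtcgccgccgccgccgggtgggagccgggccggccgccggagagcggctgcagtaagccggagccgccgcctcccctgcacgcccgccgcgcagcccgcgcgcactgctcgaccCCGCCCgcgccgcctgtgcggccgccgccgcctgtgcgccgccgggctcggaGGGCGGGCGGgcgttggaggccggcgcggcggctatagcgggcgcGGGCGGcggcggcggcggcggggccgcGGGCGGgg
Dll1, chr17:15376933-15377182, minus strand: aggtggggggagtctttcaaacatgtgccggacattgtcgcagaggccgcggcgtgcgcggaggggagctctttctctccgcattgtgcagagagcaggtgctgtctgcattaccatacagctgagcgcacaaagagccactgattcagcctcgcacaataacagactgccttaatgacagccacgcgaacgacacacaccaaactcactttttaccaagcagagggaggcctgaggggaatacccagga
Rbpj, chr5:53590096-53590345, plus strand: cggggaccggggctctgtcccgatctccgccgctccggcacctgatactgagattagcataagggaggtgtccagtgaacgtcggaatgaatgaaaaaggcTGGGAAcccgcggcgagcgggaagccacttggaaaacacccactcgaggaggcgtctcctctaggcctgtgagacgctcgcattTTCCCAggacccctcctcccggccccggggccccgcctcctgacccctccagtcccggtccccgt
The GC box, searched on both strands, was found 5 times in the window of Notch1, 4 times in that of Notch3 and 5 times in that of Jag2, and in 32.7% of all 32851 windows. It was also found 5 times in Notch2 and 2 times in Maml1, which were not called, and 0 times in the windows of Dll1, which was. The Rbpj core motif was found in 21.6% of all windows and, among the 8 genes, in Rbpj. The palindrome CACGTG, an E-box, was found in 6.02% of all windows and in 0 of the 8 genes. The windows of the called genes held 66.0% G and C in Notch1, 68.8% in Notch3, 87.2% in Jag2 and 56.0% and 64.0% in the 2 windows of Dll1. Those of the uncalled genes held 72.0% in Notch2, 57.2% in Jag1, 60.0% in Maml1 and 65.2% and 68.4% in the 2 windows of Rbpj, and the median over all windows was 52.4%. These matches describe the letters and are not evidence of binding.

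Notch1, the main Notch receptor of keratinocytes (ENSMUSG00000026923, chromosome 2, 26457903 to 26516663, GRCm38), stood at 487, 333, 378 and 297 CPM in the 4 libraries of 8 weeks and at 209, 279, 239.6 and 270.1 CPM in those of 1 week. All 4 libraries of 8 weeks were above all of 1 week, and 8 weeks 1 was well above the other three. The means were 374 ± 82.7 and 249 ± 32.0 CPM (SD, n = 4 each), a log2 fold change of 0.58 (SE 0.15, edgeR quasi-likelihood adjusted p = 0.0401). The call was lost without 8 weeks 1, 8 weeks 3, 1 week 1, 1 week 2 or 1 week 3 (highest adjusted p = 0.121). With the length and GC correction the log2 fold change was 0.26 (SE 0.10, adjusted p = 0.156). Its longest transcript has 9488 bp.

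Notch3, a receptor known from the layers above the basal cells and from vascular smooth muscle (ENSMUSG00000038146, chromosome 17, 32120820 to 32166852), stood at 78.8, 57.2, 63.6 and 51.9 CPM at 8 weeks and at 35.9, 42.2, 34 and 52.1 CPM at 1 week. The groups touched, since 8 weeks 4 was just below 1 week 4. The means were 62.9 ± 11.7 and 41.0 ± 8.16 CPM (SD, n = 4 each), a log2 fold change of 0.62 (SE 0.15, edgeR adjusted p = 0.0374). The call was lost without the same 5 libraries as that of Notch1 (highest adjusted p = 0.118), and after correction the log2 fold change was 0.32 (adjusted p = 0.169).

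Notch2, the receptor with the longest transcript of the 3 (10500 bp; ENSMUSG00000027878, chromosome 3, 98013527 to 98150361), stood at 91.9, 75.9, 83.9 and 79.0 CPM at 8 weeks and at 62.8, 75.5, 60.8 and 70.1 CPM at 1 week. The groups did not overlap, though 8 weeks 2 and 1 week 2 lay far closer to each other than the SDs of 6.97 and 6.76 CPM. The log2 fold change of 0.30 (SE 0.10) did not pass the test (edgeR adjusted p = 0.0877), and after correction it was -0.026 (adjusted p = 0.872). In all, every library of 8 weeks was above every library of 1 week in 4 of the 10 genes, Notch1, Notch2, Dll1 and Rbpj, against 7.69% of all genes tested. That share is over genes of all lengths. Notch1, Notch2 and Rbpj have transcripts of at least 5000 bp, and the share among genes of that length was not computed.

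**Figure D1:**
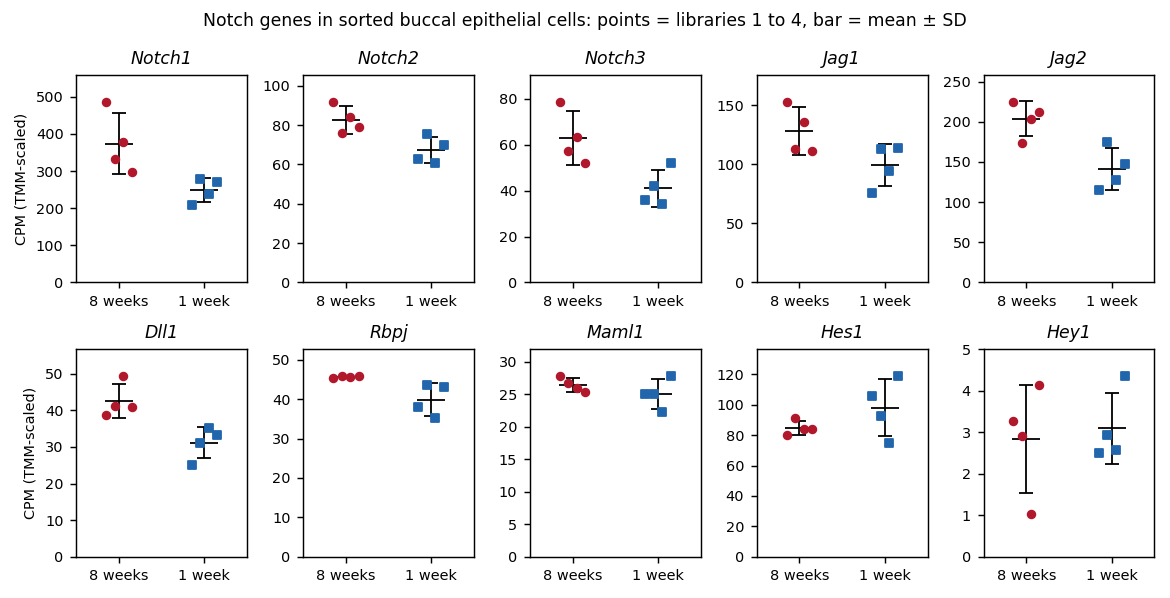
CPM (counts scaled to library size with TMM factors) of the 10 Notch genes in each library, 8 weeks left and 1 week right, with the mean and SD of 4 libraries as bars. Notch1, Notch2, Dll1 and Rbpj show no overlap between the ages, while Hes1 is 80.3 to 91.1 CPM at 8 weeks, inside the range of 75.1 to 119 CPM at 1 week.

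Jag2, a Jagged ligand (ENSMUSG00000002799, chromosome 12, 112907819 to 112929776), stood at 225, 174, 204 and 212 CPM at 8 weeks and at 115, 175, 128 and 148 CPM at 1 week. The libraries overlapped at 1 point, 8 weeks 2 lying just below 1 week 2. The means were 204 ± 21.6 and 141 ± 26.1 CPM (SD, n = 4 each), a log2 fold change of 0.53 (SE 0.13, edgeR adjusted p = 0.0368). The call was lost without 8 weeks 1, 8 weeks 3, 8 weeks 4, 1 week 1 or 1 week 3 (highest adjusted p = 0.111). After correction the log2 fold change was 0.35 (adjusted p = 0.0832).

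Dll1, a Delta ligand that marks clusters of basal cells in human epidermis (ENSMUSG00000014773, chromosome 17, 15367354 to 15376872), stood at 38.7, 41.1, 49.4 and 40.9 CPM at 8 weeks and at 25.2, 31.2, 35.1 and 33.3 CPM at 1 week. All 4 libraries of 8 weeks were above those of 1 week. The means were 42.5 ± 4.70 and 31.2 ± 4.29 CPM (SD, n = 4 each), a log2 fold change of 0.45 (SE 0.12, edgeR adjusted p = 0.047). Its transcript, of 3581 bp, is the shortest among the 4 called genes, and its log2 fold change moved least with the correction, to 0.41 (adjusted p = 0.0755). The call held without 8 weeks 2 or 1 week 3 and was lost without 8 weeks 1, 8 weeks 3, 8 weeks 4, 1 week 1, 1 week 2 or 1 week 4 (highest adjusted p = 0.149), and with no filter on low counts (adjusted p = 0.0581).

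Jag1, the other Jagged ligand and itself a known Notch target (ENSMUSG00000027276, chromosome 2, 137081456 to 137116644), stood at 153, 113, 136 and 111 CPM at 8 weeks and at 75.8, 113, 94.4 and 114 CPM at 1 week. Only 8 weeks 1 and 8 weeks 3 were above the highest library of 1 week. The log2 fold change of 0.37 (SE 0.14) did not pass the test (edgeR adjusted p = 0.114, and 0.274 after correction).

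Rbpj, the DNA-binding protein of the pathway (ENSMUSG00000039191, chromosome 5, 53466152 to 53657362), stood at 45.4, 45.9, 45.7 and 45.8 CPM at 8 weeks and at 37.9, 43.6, 35.1 and 43.0 CPM at 1 week. The libraries of 8 weeks were within 1 CPM of each other and above all of 1 week, yet the log2 fold change of 0.20 (SE 0.10) did not pass the test (edgeR adjusted p = 0.215). Maml1, a Mastermind co-activator (ENSMUSG00000050567, chromosome 11, 50255634 to 50292311), stood at 27.8, 26.7, 25.9 and 25.3 CPM at 8 weeks and at 25.0, 25.0, 22.2 and 27.8 CPM at 1 week. The ages overlapped, and its log2 fold change was 0.083 (SE 0.11, edgeR adjusted p = 0.639) and -0.096 after correction.

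Hes1, a repressor and the classical Notch target (ENSMUSG00000022528, chromosome 16, 30064384 to 30067796), stood at 80.3, 91.1, 84.2 and 83.9 CPM at 8 weeks and at 106, 92.5, 75.1 and 119 CPM at 1 week. The libraries of 8 weeks lay inside the range of those of 1 week. The log2 fold change was -0.21 (SE 0.13, edgeR adjusted p = 0.302) and 0.016 after correction (SE 0.11, adjusted p = 0.95). Its transcript, of 1468 bp, is the shortest of the 10.

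Hey1, a repressor related to Hes1 (ENSMUSG00000040289, chromosome 3, 8663359 to 8667256), was scarce. It stood at 3.27, 2.92, 1.03 and 4.14 CPM at 8 weeks, from 16 to 60 counts a library, and at 2.51, 2.94, 2.58 and 4.36 CPM at 1 week, from 28 to 49 counts. The lowest library of all was 8 weeks 3. The log2 fold change was -0.12 with an SE of 0.39 (edgeR adjusted p = 0.859). It turned positive without 8 weeks 3 (0.16) or 1 week 4 (0.083), so no direction was detectable.

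**Figure D2:**
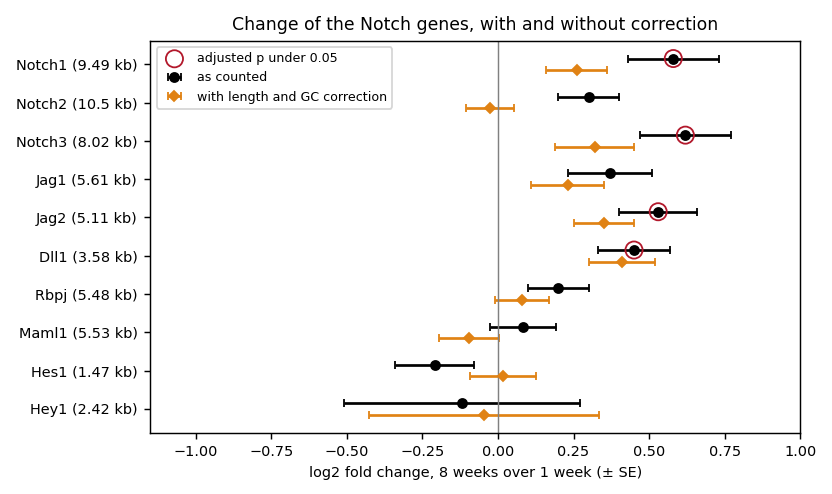
Log2 fold change of each Notch gene, 8 weeks over 1 week, with its SE, as counted (black circles) and with the correction for transcript length and GC content (orange diamonds). The red rings mark the 4 genes called, Notch1, Notch3, Jag2 and Dll1, and 0 were called after the correction.

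Levels were compared between genes as CPM per kilobase of the longest transcript. At 8 weeks Hes1 was highest at 57.8 ± 3.07 CPM per kb (SD, n = 4), followed by Jag2 at 40.0 ± 4.23 and Notch1 at 39.4 ± 8.72, which did not differ beyond their spread. Jag1 followed at 22.9 ± 3.61, Dll1 at 11.9 ± 1.31, Rbpj at 8.33 ± 0.0427, Notch2 at 7.88 ± 0.664, Notch3 at 7.84 ± 1.45, Maml1 at 4.79 ± 0.197 and Hey1 at 1.17 ± 0.54 CPM per kb. The levels of Notch2 and Notch3 did not differ beyond their spread, and the mean of Rbpj lay within 1 SD of both, although its own SD was far smaller. The means of the 10 genes had the same order at 1 week, where Hes1 stood at 66.8 ± 12.8, Jag2 at 27.7 ± 5.10, Notch1 at 26.3 ± 3.37 and Notch3 at 5.12 ± 1.02 CPM per kb.

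**Figure D3:**
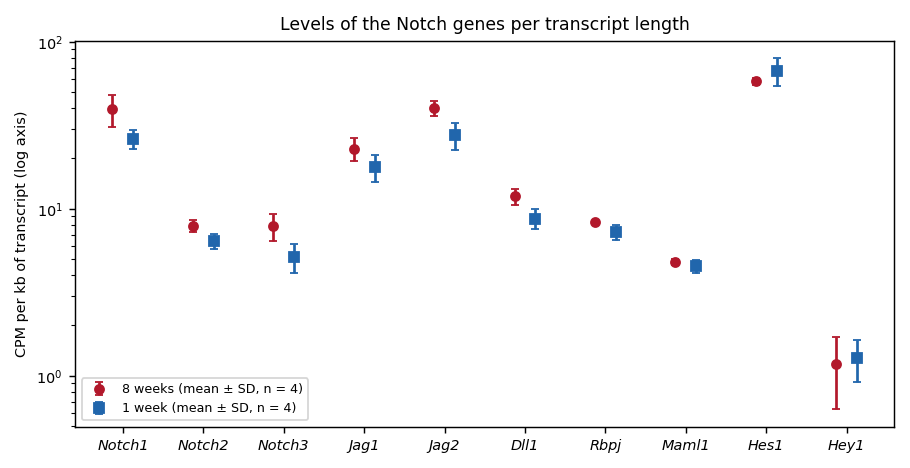
Level of each Notch gene per kilobase of its longest transcript (CPM per kb, log axis), as mean and SD of 4 libraries, 8 weeks in red circles left of 1 week in blue squares. Hes1 is highest and Hey1 lowest at both ages, and among receptors and ligands Jag2 and Notch1 lead.

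Among the receptors, Notch1 made up 71.2 ± 1.78% of the summed level per kilobase at 8 weeks and 69.5 ± 1.74% at 1 week (SD, n = 4 each), Notch3 14.2 ± 0.156% and 13.5 ± 1.59%, and Notch2 14.5 ± 1.68% and 17.0 ± 1.06%. Among the ligands, Jag2 made up 53.5 ± 2.66% and 51.1 ± 2.70%, Jag1 30.5 ± 2.54% and 32.6 ± 1.49%, and Dll1 16 ± 2.09% and 16.2 ± 2.13%. Both sets were therefore led by 1 gene at both ages, with shares that moved by little. Ratios within a library, which need no scaling between libraries, were tested for 4 pairs with an exact two-sided permutation test, whose smallest possible p with 4 against 4 libraries is 0.0286. The log2 ratio of Notch3 over Notch1 was -2.56 ± 0.05 at 8 weeks and -2.61 ± 0.20 at 1 week (SD, n = 4 each, exact p = 0.657, adjusted over the 4 ratios 0.876). That of Notch2 over Notch1 was -2.15 ± 0.20 and -1.88 ± 0.11 (exact p = 0.0857, adjusted 0.343). That of Jag2 over Jag1 was 0.67 ± 0.18 and 0.51 ± 0.13 (exact p = 0.257, adjusted 0.514), and that of Hey1 over Hes1 was -5.05 ± 0.88 and -4.98 ± 0.27 (exact p = 0.943, adjusted 0.943). None of the 4 ratios passed, which does not show that they were equal.

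A further 63 genes of the pathway were listed by role, and 50 of them were tested. Of these 5 were called higher, 1 lower and 44 not called, with a median log2 fold change of 0.061 (0.012 after correction). Over all genes tested 3.33% were called higher and 3.22% lower. The genes called were the ligand-like gene Dlk2, the co-activators Crebbp and Ep300 and the co-repressors Spen and Tle3, which were higher, and Hes6, which was lower.

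Of 2 tested genes among the other receptors and ligands, 1 rose, against 3.33% of all genes tested. The other, Dlk1, had a log2 fold change of -0.83 (SE 0.35) that did not pass the test (edgeR adjusted p = 0.147). It stood at 2.29 ± 0.914 CPM at 8 weeks and 4.09 ± 1.02 CPM at 1 week (SD, n = 4 each). Dlk2, a Delta-like membrane protein without the receptor-binding DSL domain, stood at 26.8, 38.0, 28.4 and 40.2 CPM at 8 weeks and at 23.5, 23.6, 23.1 and 16.1 CPM at 1 week, without overlap. Its log2 fold change was 0.62 (SE 0.16, edgeR adjusted p = 0.0416), and after correction 0.74 (adjusted p = 0.0222), so it was the 1 gene of all these lists called after correction. Its transcript is short, at 1783 bp. The call as counted was lost with each of the 8 libraries left out in turn (adjusted p = 0.0556 to 0.0899), and its exons overlap those of Abcc10 on the other strand, which held 31 to 241 counts a library. The endothelial members of the family were nearly silent, Notch4 with 80 counts and Dll4 with 27 counts over the 8 libraries, and neither was tested.

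Of 7 tested Hes, Hey and feedback genes 1 fell, against 3.22% of all genes tested. Hes6, a family member known to oppose Hes1 in mouse neural cells, stood at 11.1, 16.2, 12.0 and 12.2 CPM at 8 weeks and at 26.8, 18.8, 18.6 and 22.2 CPM at 1 week, without overlap. Its log2 fold change was -0.75 (SE 0.16, edgeR adjusted p = 0.0262). The call was lost without 8 weeks 1, 8 weeks 3, 8 weeks 4 or 1 week 1 (highest adjusted p = 0.0883) and after correction (-0.56, adjusted p = 0.0519). Nrarp, a feedback inhibitor and direct Notch target chosen for mention after its value was seen, stood at 46.5 ± 7.14 CPM at 8 weeks and 52.2 ± 4.31 CPM at 1 week (SD, n = 4 each, edgeR adjusted p = 0.373). Of the 13 genes of this list, Hes3 and Hes5 were not in the table, and 4 others were under the filter.

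Of 7 tested co-activators 2 rose and of 11 co-repressors 2 rose, counted over all transcript lengths, against 3.33% of all genes tested. All 4 have transcripts over 5000 bp, and 11.3% of the genes of at least 5000 bp were called higher. Spen, a co-repressor that binds Rbpj, stood at 226, 169, 213 and 167 CPM at 8 weeks and at 119, 142, 129.8 and 142 CPM at 1 week, without overlap. Spen and the histone acetyltransferase genes Crebbp and Ep300 had log2 fold changes of 0.54, 0.53 and 0.44 (edgeR adjusted p = 0.0266, 0.0312 and 0.0414) and 0.16, 0.21 and 0.15 after correction (adjusted p = 0.232, 0.135 and 0.269). Spen shares exon sequence with Zbtb17 on the other strand, which held 570 to 1004 counts a library. Tle3, a Groucho co-repressor of the Hes proteins, had 0.38 (edgeR adjusted p = 0.0445) and 0.22 after correction (adjusted p = 0.162). Without 8 weeks 1, 8 weeks 3 or 1 week 1 none of these 4 was called. Ep300 was also lost without 1 week 2 or 1 week 3, and Tle3 without 8 weeks 4, 1 week 2 or 1 week 4 (highest adjusted p = 0.087 for Spen, 0.0986 for Crebbp, 0.128 for Ep300 and 0.128 for Tle3).

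The enzymes that process and modify the receptors did not pass the test. EdgeR called 0 of 9 proteases, 0 of 5 glycosyltransferases and 0 of 9 genes of traffic and turnover. The most abundant of each were Furin, the convertase that cuts the receptor in the Golgi, at 87.3 ± 8.11 CPM at 8 weeks and 82.3 ± 9.71 CPM at 1 week (SD, n = 4 each, edgeR adjusted p = 0.653), the Fringe gene Lfng at 49.5 ± 15 and 61.7 ± 16.6 CPM (adjusted p = 0.355), and the ligand ubiquitin ligase Mib1 at 155 ± 28.4 and 127 ± 11.1 CPM (adjusted p = 0.147).

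**Figure D4:**
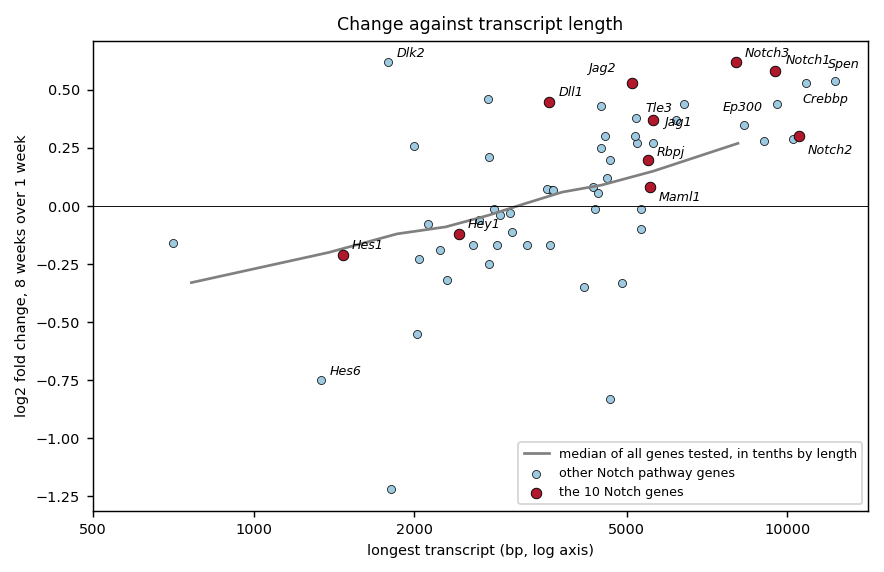
Log2 fold change, 8 weeks over 1 week, against the longest transcript (bp, log axis) for the 10 Notch genes (red) and 50 further pathway genes (blue), with the median of all genes tested in 10 length classes as a grey line. That median runs from -0.33 in the shortest class to 0.27 in the longest. Notch1, Notch3, Jag2, Dll1 and Dlk2 lie above it, as do Spen, Crebbp, Ep300, Tle3, and also Jag1 and other genes that were not called.

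In the longest of 10 equal length classes, with a median transcript of 8081 bp, the median log2 fold change was 0.27 and 16.3% were called higher, and in the shortest, with 765 bp, it was -0.33 and 0.482% were called higher. The log2 fold changes of Notch2 (0.30) and Hes1 (-0.21) lay near the median of genes of their length, and that of Maml1 (0.083) below it. Those of Notch1 (0.58), Notch3 (0.62), Jag2 (0.53) and Dll1 (0.45) lay above it, and the corrected values of these 4 were 0.26 to 0.41. That of Jag1 (0.37), which was not called, also lay above the median of its length class (0.15). That of Rbpj (0.20), in the same class and not called, was nearer to this median. All 4 libraries of 1 week had a length slope below each of those of 8 weeks, so this trend and the age of the mice cannot be told apart.

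Genes with the library profile most like each called gene were sought among 8865 genes of at least 10 CPM, by the root mean square difference of log2(CPM + 1), centred on each gene's mean, over the 8 libraries. For Notch1 they were Srcap, Med13l and Ino80d (0.063 to 0.068), and for Notch3 Il1r1, Hdac4 and Cdon (0.073 to 0.076). For Jag2 they were Plxna1, Bod1l and Depdc5 (0.084 to 0.091). The nearest genes of these 3 had transcripts of 5819 to 13675 bp. For Dll1 they were Fbxw7, Ccdc191 and Rad54b (0.07 to 0.072), with transcripts of 2870 to 4473 bp. Fbxw7, the ubiquitin ligase subunit that marks the cleaved Notch domain for turnover, is itself in the list of traffic and turnover and had a log2 fold change of 0.43 that did not pass the test (edgeR adjusted p = 0.0581).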

How the data were processed

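RNA of sorted buccal epithelial cells from 4 mice of 8 weeks and 4 of 1 week was analysed. The deposited table gives raw read counts per gene and library for 23355 genes, each with at least 10 counts over the 8 libraries. It also gives the authors' normalized signal, which was not used here, and their log2 fold changes, Wald score, p-values and adjusted p-values. GRCm38, TopHat2 2.1.1 and HTSeq 0.6.0 stand in the submitters' processing notes, with DESeq2 1.26.0, cutadapt 2.10 and bcl2fastq 2.20.0.422. Neither the annotation release nor HTSeq's strand setting is given there, and a count may hold reads of a gene overlapping on the other strand. Of the 10 genes 4 (Notch1, Notch3, Dll1 and Maml1) share exon sequence with a gene on the other strand and Notch2 with one on its own, and those of these partners that are in the table held at most 51 counts a library. Columns were matched to samples by library name, and 0 columns were left unmatched.

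EdgeR 4.0.16 in R 4.3.3 was run on the counts (filterByExpr, minimum count 10, minimum total 15, TMM scaling, quasi-likelihood F test, two-sided) over all genes, with Benjamini-Hochberg adjustment and a call at 0.05. The test was also run on simulated counts, and the outcome of that run is not reported here. SE values come from the F statistic. Lengths and GC content are those of the longest transcript in GENCODE M21 (GRCm38), protein-coding where there was one, for 99.8% of genes. The correction used splines with 4 degrees of freedom on each as offsets per library. Ratios used counts plus 0.5. Alternatives used DESeq2 1.42.0, limma 3.58.1 and other scalings, filters and samples. The 10 genes, the lists and the tests were chosen with earlier results of these data known, and 1 pathway gene is not reported here. The rule for naming pathway genes took the 10, every called gene of the other lists and the most abundant gene of a list without a call. Nrarp, Notch4, Dll4 and Dlk1 are outside this rule. Other genes stand as markers, as genes with the most alike profile, as genes sharing exon sequence or as absent from the table. The series' design text gives 4 animals in each group, so p-values measure the spread between animals. Replicate numbers did not pair the libraries (correlations of deviations from the group means were -0.306 to 0.0036).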

Additional observations from a re-analysis of the deposited data

Results flagged for a closer look

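Of 40 groups of 4 libraries checked, 1 held a library far from the other three, where chance gives about 1 in 20. Dlk2 stood at 16.1 CPM in 1 week 4, against 23.1 to 23.6 CPM in the other libraries of 1 week.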

How the results depend on the processing

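The number of Notch genes called (4, all higher) was 0 with the length and GC correction, 0 with the replicate block of the titles, 0 with that of the library names, 0 with block and correction together, 0 without 8 weeks 1 and 1 week 1 together (chosen after seeing the data, as the libraries with the steepest length slopes), and 0 to 4 with each library left out. With 6 further pathway genes called, these counts were 1, 0, 0, 0 and 0, and 0 to 6. Over all genes 952 were called, and 383, 161, 92, 115 and 26 under the same settings, 592 with no filter, 2034 with the DESeq2 Wald test, 1640 with limma-voom and 91 to 1891 with a library left out. The block removes degrees of freedom and the replicate numbers share only a number, with 0 of 8 libraries closest to their own number in the other age. That of the library names also leaves out 8 weeks 3 and 1 week 3, whose names share no number with the other age. Without 8 weeks 3 alone, and with no block, 0 Notch genes were called. Notch1, Notch3, Jag2 and Dll1 stayed positive in all 19 alternatives, at log2 fold changes of 0.25 to 0.68, 0.32 to 0.75, 0.35 to 0.64 and 0.36 to 0.53, and were called in 9, 9, 9 and 7 of them. Genes that were not called and changed sign were Notch2 (-0.026 with the correction, -0.023 with the block added), Maml1 (-0.096 and -0.092), Hes1 (0.016 and 0.03) and Hey1 (0.098 with the block of the library names, 0.16 without 8 weeks 3, 0.083 without 1 week 4, and -0.36 to 0.16 over all libraries left out). Causes of these changes were not tested. The correction removes the fitted length and GC terms together by construction, which is not a test of a cause. The 4 ratios, none of them called, moved by less than the larger of their SDs at the 2 ages. With a library left out, Notch3 over Notch1 ran from -0.018 to 0.13 and Hey1 over Hes1 from -0.30 to 0.35, so both changed sign. Hey1 gave no value under the stricter filter. Among the 10 genes Hey1 had the lowest counts (16 to 60 a library).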
